A study of Mus musculus with 8 samples.

Results

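Oxidative phosphorylation genes encode the 5 protein complexes of the inner mitochondrial membrane that carry electrons to oxygen and make ATP. They were taken by name from a table of read counts for 16130 genes: mt-Nd, mt-Co, mt-Cytb and mt-Atp genes, the Nduf genes of series a, b, c, s and v, Sdha to Sdhd, and the Uqcr, Cox4 to Cox8 and Atp5 genes, without pseudogenes. The rule found 93 genes, of which 7 are encoded by mitochondrial DNA and 86 by the nucleus. It used names alone and no measured value. Of the 93 genes, 91 passed the filter on low counts and were tested among 14311 genes in all, and Cox4i2 and Ndufa4l2 did not.

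The RNA came from distal colon of mice housed for 4 months in an environmentally enriched setting (EE, 4 libraries) or in conventional, non-enriched cages (NE, 4 libraries). All mice of both groups carried the ApcMin allele, a truncating allele of the Wnt pathway's tumour suppressor that gives intestinal adenomas, and a heterozygous Tcf4 allele. No other treatment is named, ages and strains are not given beyond the months of housing, and it is not stated if the libraries are from different animals, so p-values measure the spread between these samples. The libraries were depleted of ribosomal RNA, and they held counts of both nuclear and mitochondrial genes.

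The libraries held 4735764 to 6266902 counts in EE and 6120185 to 10586851 counts in NE. EE 4 stood apart, at 46.3 on the first principal component of the 500 most variable genes, against −10.4 to 6.36 for the other EE libraries and −14.2 to −7.56 for NE. Epithelial markers (Epcam, Krt8, Cdh1) summed to 4195 to 6049 counts per 1000000 library counts (CPM) in EE and 4675 to 6224 CPM in NE. They were thus abundant in every library labelled distal colon, with 2 lower and 1 higher in EE. Colonocyte markers summed to 848 to 2366 CPM in EE and 1680 to 2389 CPM in NE, and all 6 had lower values in EE. Smooth muscle markers summed to 644 CPM in EE 4 and 2230 to 4247 CPM in the other EE libraries, against 3387 to 5471 CPM in NE, and all 8 had lower values in EE. Pericyte markers ran from 76.1 to 469 CPM in EE and from 455 to 657 CPM in NE, with all 7 lower in EE. Crypt and dividing cell markers ran from 851 to 1630 CPM in EE and from 754 to 876 CPM in NE, with all 6 higher in EE. Plasma cell markers summed to 305 CPM in EE 4 and 1389 to 2558 CPM in the other EE libraries, against 1978 to 3511 CPM in NE, and all 3 were lower in EE. T cell markers summed to 3.48 to 8.98 CPM in EE and 10.6 to 15.1 CPM in NE, without overlap, and B cell markers to 2.22 to 11.5 CPM in EE and 8.01 to 14.7 CPM in NE, with all 3 markers of each of these lists lower in EE. The part of these cell types in the values that follow was not tested. In bulk tissue, fewer cells of a type and less RNA per cell cannot be told apart.

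Complex I takes electrons from NADH, complex II from succinate, and both pass them by ubiquinone to complex III, by cytochrome c to complex IV and then to oxygen. Complexes I, III and IV pump protons, and complex V, the ATP synthase, uses the gradient. Mitochondrial DNA encodes a few core subunits of each complex except complex II, on long transcripts read from both strands, and all other subunits come from nuclear genes, so every complex except II needs products of both genomes. In the colon, surface colonocytes depend heavily on these complexes because they burn butyrate made by bacteria.

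No gene of the set passed edgeR's quasi-likelihood test at a Benjamini-Hochberg adjusted p of 0.05, and the smallest adjusted p was 0.52. None of all 14311 tested genes passed either (0% called), while DESeq2 called 12 genes, none in the set, and limma-voom 0. At an unadjusted p under 0.05 there were 9 of the 91 genes (9.89%), against 9.49% of all genes, so the share at this level was near the background. This count was 31 without EE 2, when that over all genes was 2746, and 3 without NE 1, when that over all genes was 665. It was 1, 2, 5 and 3 without EE 1, EE 4, NE 2 and NE 4. The counts over all genes in those runs, between 665 and 2746, are not given singly. These counts are not shares, so they do not tell where the set lay above or below all genes. The count thus moved with single libraries and is not read as a result about the set. Of these 9, 8 were nuclear genes with lower values in EE (Ndufs7, Ndufv3, Ndufb11, Cox8a, Cox7a2l, Ndufb5, Cox6a1 and Ndufa8; background 3.75% lower) and 1 was mitochondrial, mt-Nd6, with higher values in EE (background 5.74% higher). The groups did not overlap for 3 of the 91 genes (3.3%), Ndufs7, Uqcrc1 and Cox7a2l, against 4.89% of all genes.

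Most nuclear genes had lower values in EE, while the mitochondrial genes had no common direction. Of 84 nuclear genes tested, 79 had lower values in EE (94%), with a median log2 fold change of −0.24 and a range of −0.47 to 0.30, while 49.7% of all tested genes were lower and their median was 0. Of the 7 mitochondrial genes, 5 had higher values in EE, with a median log2 fold change of 0.08 and a range of −0.19 to 0.50. These are counts of directions among genes that vary together from library to library, and no test was made of them. Without EE 4, 70 of the 84 nuclear genes were lower (median −0.14). Of the 7 mitochondrial genes 4 were then lower and 3 higher in EE, with a median of 0. Without NE 4 the nuclear count was again 70 (median −0.17), and without EE 3 the mitochondrial median was 0.23. With each library left out in turn, mt-Nd4 (0.06 to 0.43), mt-Nd5 (0.26 to 0.52) and mt-Nd6 (0.39 to 0.69) stayed positive. mt-Co1 ran from −0.32 to 0 without a change of sign, while mt-Nd1, mt-Nd2 and mt-Cytb changed sign.

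**Figure D1:**
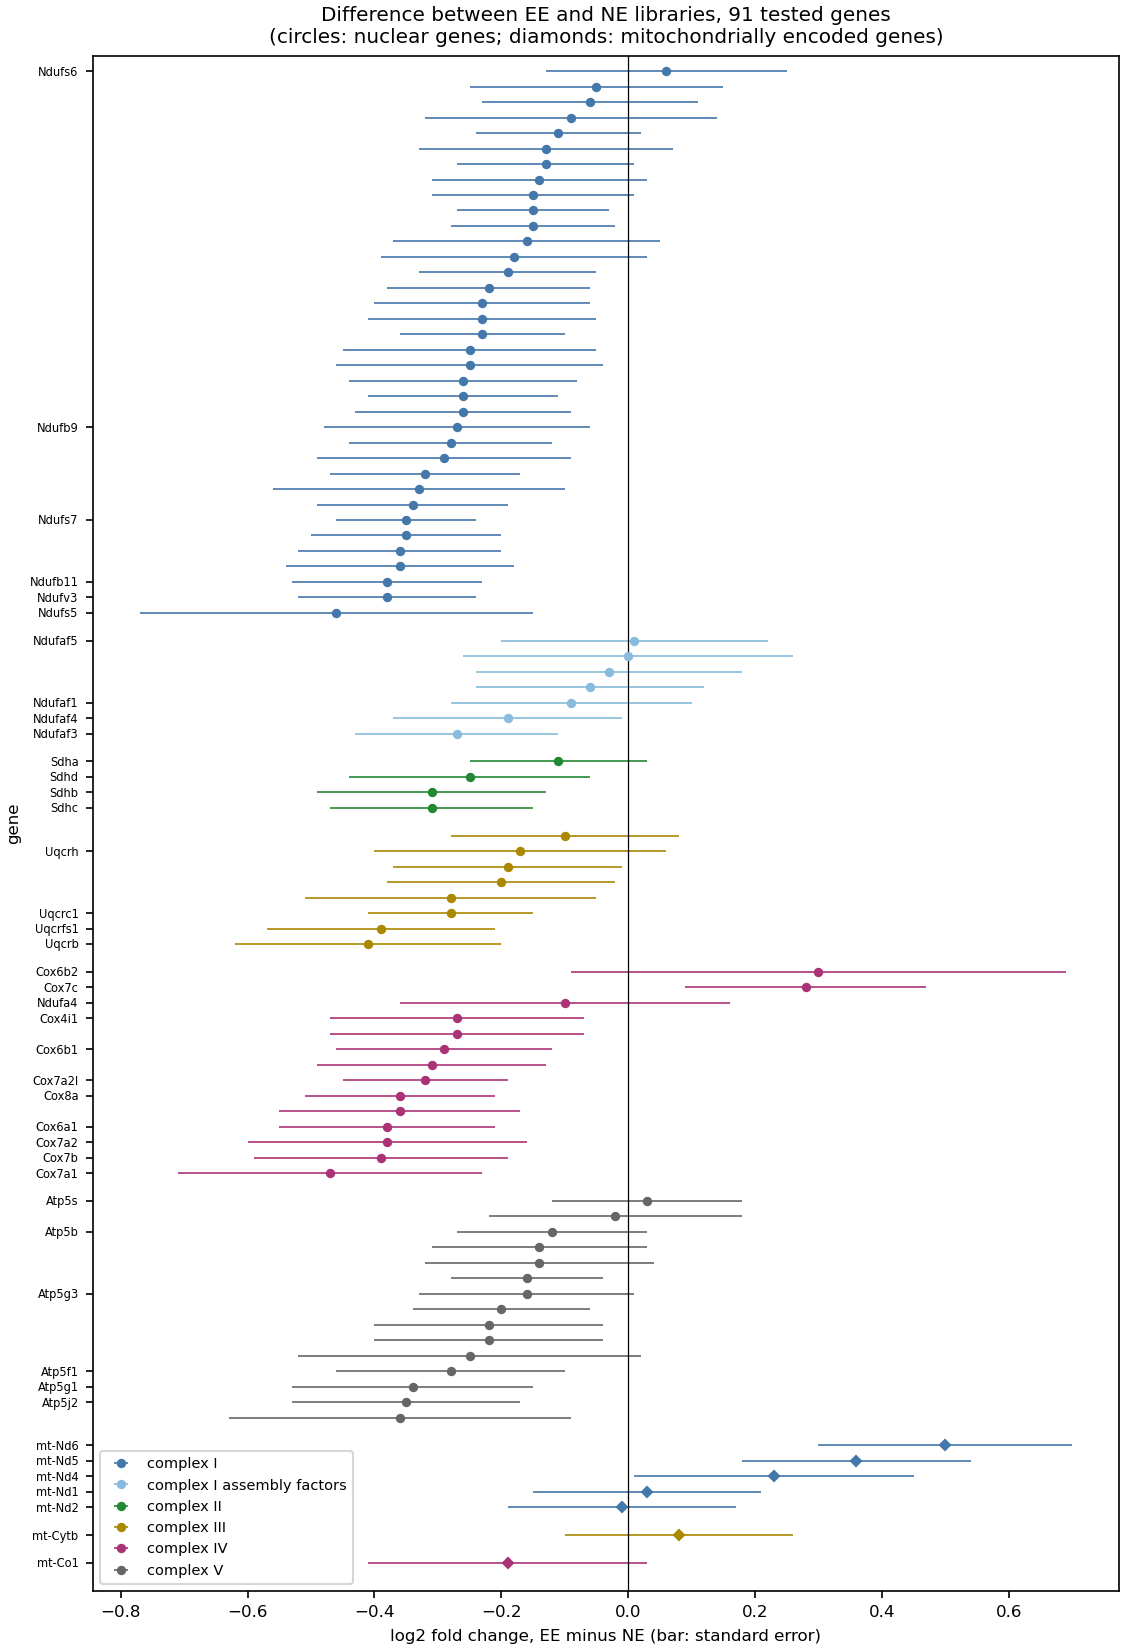
Log2 fold change of each tested oxidative phosphorylation gene, EE minus NE (x axis), with the standard error as a bar, ordered within each complex, with names beside the genes chosen by the naming rule; circles are nuclear and diamonds mitochondrial genes. Of the 84 nuclear genes 79 lie left of 0, and 5 of the 7 mitochondrial genes lie right of it, none past the adjusted threshold.

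Taken by their median, the nuclear genes shifted from library to library within each housing group. Their median log2 CPM, counted from each gene's mean over the 8 libraries, was −0.29, 0.19, 0.01 and −0.42 in EE 1 to EE 4, against 0.22, 0.06, −0.08 and 0.33 in NE 1 to NE 4. EE 2 and EE 3 lay within the range of NE, and the group difference came from low values in EE 1 and EE 4 and high values in NE 1 and NE 4. Of the 84 nuclear genes, 53 were lowest in EE 4 and 23 in EE 1, and 46 were highest in NE 4 and 27 in NE 1. Single genes could go opposite ways in a library, as in EE 3, where Uqcrb deviated by −0.41 and Ndufa4 by 0.465.

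The mitochondrial genes followed another order. Their median deviations were 0.09, 0.21, −0.47 and 0.37 in EE 1 to EE 4, against −0.14, 0.14, −0.01 and −0.15 in NE 1 to NE 4. All 7 were lowest in EE 3, and 5 of the 7 were highest in EE 4, the library where most nuclear genes were lowest. The spread among the EE libraries spanned that of NE on both sides.

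**Figure D2:**
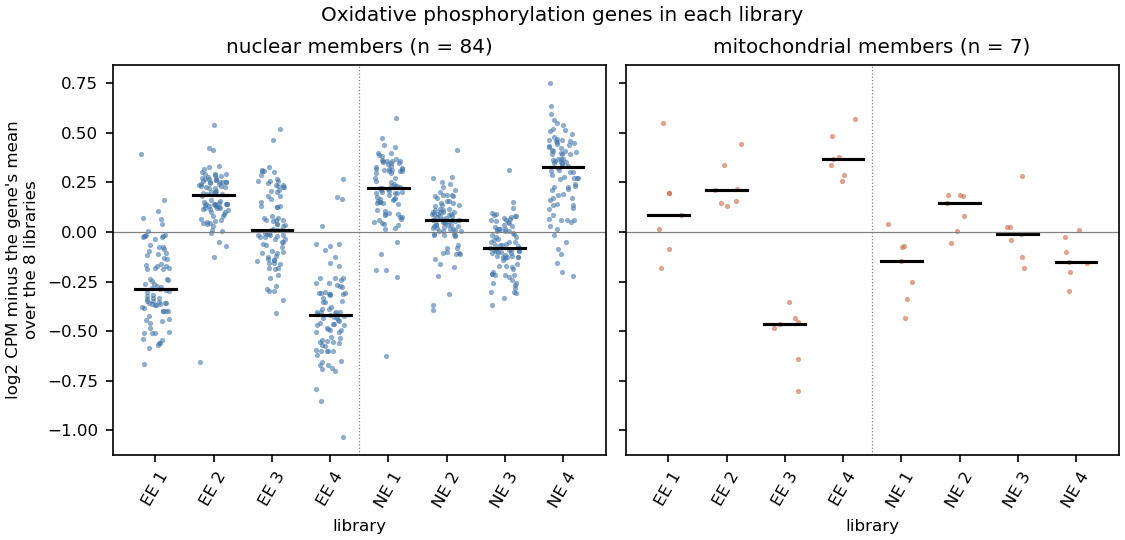
Log2 CPM of each gene minus its mean over the 8 libraries (y axis) in each library (x axis), for nuclear genes on the left and mitochondrial genes on the right; points are genes and bars medians. Nuclear medians are lowest in EE 4 (−0.42) and EE 1 (−0.29), while mitochondrial medians are lowest in EE 3 (−0.47) and highest in EE 4 (0.37).

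As a share of all counts, the 7 mitochondrial genes took 0.798%, 0.867%, 0.552% and 1.03% in EE 1 to EE 4, against 0.729%, 0.869%, 0.872% and 0.741% in NE 1 to NE 4. The 86 nuclear genes took 1.48%, 1.87%, 1.81% and 1.31% in EE, against 1.95%, 1.74%, 1.66% and 1.99% in NE. The ratio of mitochondrial to nuclear counts was 0.537, 0.465, 0.305 and 0.787 in EE and 0.373, 0.499, 0.526 and 0.372 in NE. It averaged 0.524 ± 0.201 in EE and 0.443 ± 0.0814 in NE (SD, n = 4 each), a mean log2 difference of 0.18, and EE held both the lowest and the highest value. Without EE 4 the log2 difference was −0.04, and without EE 3 it was 0.41, so a single library decided its sign. The difference was 0.33 with mt-Co1 left out of the sum and 0.58 with medians over the genes in place of sums.

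**Figure D3:**
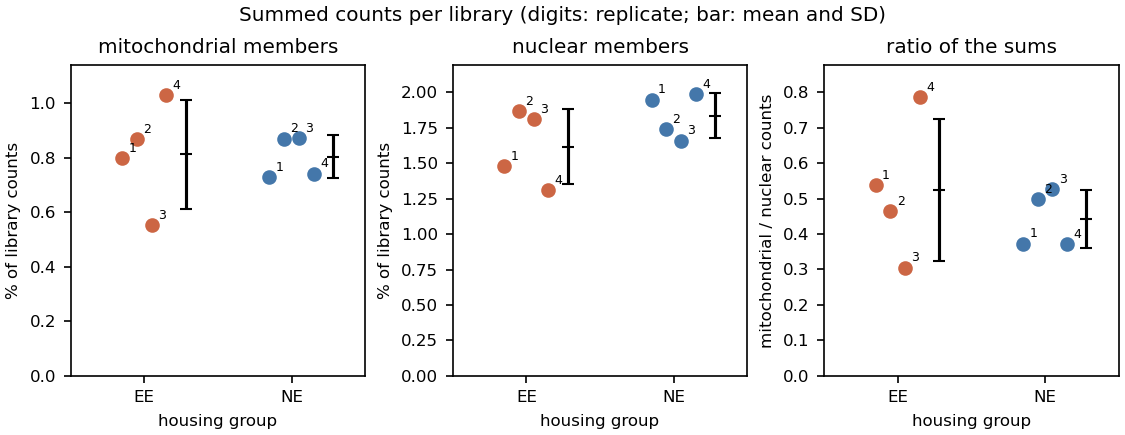
Percent of library counts taken by the mitochondrial genes (left) and the nuclear genes (middle), and the ratio of the sums (right), for EE and NE; points are libraries numbered by replicate and bars are the mean and SD. The EE ratios run from 0.305 to 0.787 and enclose the NE ratios of 0.372 to 0.526.

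Nuclear subunit genes are mostly short, and short transcripts as a class differed between these libraries. Among all 565 tested genes with a principal transcript of 700 bases or less, the median deviation was −0.36, 0.18, 0.28 and −0.34 in EE 1 to EE 4, against 0.06, 0.01, −0.13 and 0.41 in NE 1 to NE 4. The 30 nuclear oxidative phosphorylation genes of that length had −0.39, 0.23, 0.18 and −0.42 in EE, against 0.19, 0.05, −0.12 and 0.41 in NE. In both sets EE 1 and EE 4 were the lowest libraries and NE 4 the highest, while NE 1 was higher in the oxidative phosphorylation genes. Their median log2 fold change was −0.26, and that of all genes of the length −0.11.

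Among genes of over 700 and up to 1500 bases the median log2 fold change was −0.26 for 33 nuclear oxidative phosphorylation genes and −0.05 for all 1943 genes. Above 1500 bases, where all 11675 tested genes had library medians of −0.02 to 0.04, the 21 nuclear oxidative phosphorylation genes showed a median log2 fold change of −0.19, and 20 of the 21 were lower in EE. Their deviations were −0.08, 0.14, −0.11 and −0.31 in EE 1 to EE 4, against 0.23, 0.05, 0.02 and 0.09 in NE 1 to NE 4. The class above 1500 bases holds 11675 of all 14311 tested genes and so largely sets the scaling. Medians near 0 over all its genes follow from that and are no independent comparison. The part of transcript length in these values was not tested, and lengths were not matched within a class.

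**Figure D4:**
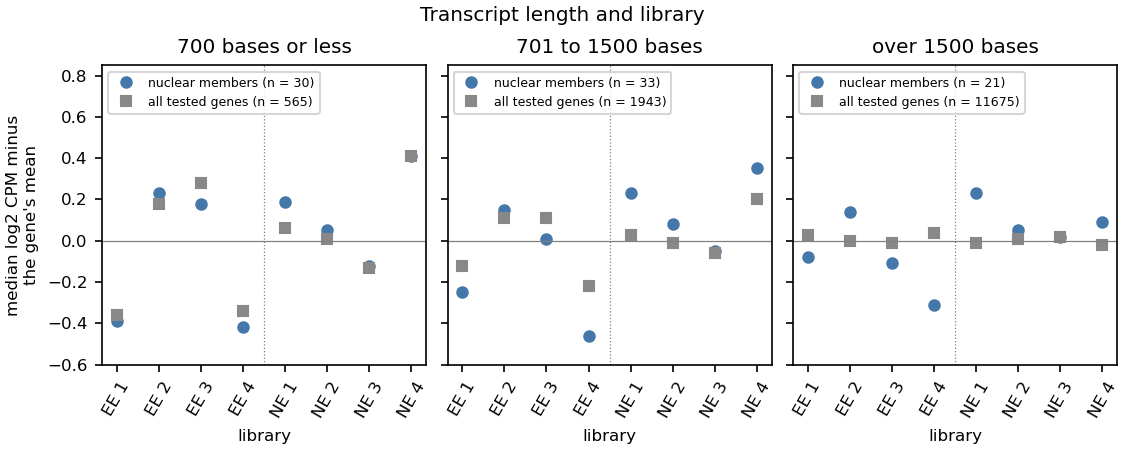
Median log2 CPM minus the gene's mean (y axis) in each library (x axis) for nuclear oxidative phosphorylation genes (circles) and all tested genes (squares) in 3 classes of transcript length. In both sets EE 1 and EE 4 are lowest and NE 4 highest at 700 bases or less. Above 1500 bases the oxidative phosphorylation medians reach down to −0.31 in EE 4. All tested genes stay at −0.02 to 0.04 there, in a class that holds most genes and so largely sets the scaling.

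The nuclear genes share regulators as well as products. Nuclear respiratory factor 1 and the ETS factor GABP are known activators of many of them, so promoter windows from 250 bases before to 50 bases after the RefSeq start were searched on both strands for an NRF1-type word, GCGCATGCG, and an ETS-type word, CCGGAAGT. Windows (RefSeq, GRCm38.p6) were found for 69 of the 86 nuclear genes. The NRF1-type word stood in 8 of these (11.6%), against 1.95% of 27025 gene windows, the ETS-type word in 5 (7.25%), against 4.31%, and either in 12 (17.4%), against 6.04%. A window with a word on both strands at one place was counted once.

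The windows of the genes with the smallest p among those that hold a word are printed, to show where the words lie in promoters of genes with lower values in EE, and that of Ndufs7, which had the smallest p and neither word, for comparison. Capitals mark the words on either strand.
Cox8a, chr19:7217567-7217866, minus strand: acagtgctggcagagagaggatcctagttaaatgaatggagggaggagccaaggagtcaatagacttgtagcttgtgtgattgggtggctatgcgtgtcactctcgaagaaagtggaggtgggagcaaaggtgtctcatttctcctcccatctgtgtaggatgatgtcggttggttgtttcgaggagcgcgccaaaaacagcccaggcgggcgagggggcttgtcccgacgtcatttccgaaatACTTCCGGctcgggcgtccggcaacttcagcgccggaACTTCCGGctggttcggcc
Cox6a1, chr5:115348909-115349208, minus strand: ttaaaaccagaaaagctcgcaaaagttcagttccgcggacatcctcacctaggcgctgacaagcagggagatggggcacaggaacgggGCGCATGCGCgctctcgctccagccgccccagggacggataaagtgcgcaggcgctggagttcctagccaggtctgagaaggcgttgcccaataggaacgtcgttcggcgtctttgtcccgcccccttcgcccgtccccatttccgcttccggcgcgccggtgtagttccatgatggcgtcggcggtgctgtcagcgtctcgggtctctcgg
Ndufa8, chr2:36049289-36049588, minus strand: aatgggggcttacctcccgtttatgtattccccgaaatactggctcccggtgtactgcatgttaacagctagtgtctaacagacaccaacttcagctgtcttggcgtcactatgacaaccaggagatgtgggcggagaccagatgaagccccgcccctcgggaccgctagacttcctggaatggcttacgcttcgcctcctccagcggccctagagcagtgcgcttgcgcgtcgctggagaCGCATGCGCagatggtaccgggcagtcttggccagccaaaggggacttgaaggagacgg
Uqcrc1, chr9:108936398-108936697, plus strand: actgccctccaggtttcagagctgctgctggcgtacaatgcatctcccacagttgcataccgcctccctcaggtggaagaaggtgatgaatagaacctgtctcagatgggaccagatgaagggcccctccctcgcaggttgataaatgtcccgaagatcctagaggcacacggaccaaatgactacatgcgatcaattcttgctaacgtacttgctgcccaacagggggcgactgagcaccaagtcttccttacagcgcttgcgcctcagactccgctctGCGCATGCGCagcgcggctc
Ndufs7, chr10:80249199-80249498, plus strand: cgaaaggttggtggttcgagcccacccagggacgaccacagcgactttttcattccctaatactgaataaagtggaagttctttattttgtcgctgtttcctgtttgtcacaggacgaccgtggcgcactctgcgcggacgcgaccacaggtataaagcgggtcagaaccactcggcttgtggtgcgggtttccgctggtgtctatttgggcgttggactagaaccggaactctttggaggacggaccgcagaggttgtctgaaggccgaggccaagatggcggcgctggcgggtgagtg
The Cox8a window holds 2 ETS-type words close to the start, and Cox6a1, Ndufa8 and Uqcrc1 each hold 1 NRF1-type word. The 8 genes with an NRF1-type word had a median log2 fold change of −0.25, and so did the 61 without. The 5 genes with an ETS-type word had a median of −0.17, and the 64 without −0.25. These matches describe letters in the windows and say nothing of binding.

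Complex I is the largest complex, and 35 of its 36 nuclear subunit genes tested had lower values in EE, with a median log2 fold change of −0.24. Ndufs7 encodes the core iron-sulfur subunit next to the ubiquinone site (chr10:80249121-80256794, plus strand). It had 52.1, 55.6, 51.3 and 48.6 CPM in EE 1 to EE 4, against 75.2, 63.2, 61.8 and 64.2 CPM in NE 1 to NE 4. Every EE library lay below every NE library, and EE 4 was close to the other 3. The log2 fold change was −0.35 (SE 0.11, edgeR Benjamini-Hochberg adjusted p = 0.52), and leaving out any library gave −0.38 to −0.28.

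Ndufv3 encodes an accessory subunit of the NADH-oxidising module and Ndufb11 an X-linked accessory subunit of the membrane arm. Ndufv3 was at 81.4, 107, 91.8 and 72.5 CPM in EE, against 121, 111, 106 and 121 CPM in NE, where EE 2 lay within the NE range (log2 fold change −0.38, SE 0.14, edgeR adjusted p = 0.52). Ndufb11 was at 78.4, 89.8, 87.6 and 58.7 CPM in EE, against 113, 97.8, 89.2 and 110 CPM in NE, with EE 2 just above NE 3 (log2 fold change −0.38, SE 0.15, edgeR adjusted p = 0.52).

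Ndufb5 and Ndufa8, accessory subunits chosen here for their unadjusted p, gave like values. Ndufb5 was at 124, 168, 142 and 108 CPM in EE, against 189, 167, 150.4 and 185 CPM in NE (log2 fold change −0.35, SE 0.15). Ndufa8 was at 74.4, 98.4, 92.4 and 68.7 CPM in EE, against 105, 99.7, 91.4 and 126 CPM in NE (−0.34, SE 0.15). EE 1 and EE 4 were below all NE libraries in both.

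Other accessory subunits gave the ends of the range. Ndufs5, a subunit on the intermembrane side, had the lowest log2 fold change of the complex at −0.46 (SE 0.31), but at only 2.69 to 6.88 CPM in EE and 4.96 to 8.19 CPM in NE its groups overlapped, and 68.9% of its 50-base windows occur in no other annotated gene. Ndufs6, a zinc-binding subunit of the NADH module, was the only nuclear subunit of complex I with a positive value, at 0.06 (SE 0.19). Ndufb9, the highest nuclear gene of the complex per base of its longest transcript, was at 262, 415, 333 and 222 CPM in EE and 412, 349, 282 and 437 CPM in NE. Its EE libraries spanned nearly the whole range of both groups.

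The core flavoprotein gene Ndufv1, which binds NADH, had 165, 173, 161 and 145 CPM in EE, against 229, 174, 179.7 and 171 CPM in NE, with NE 1 alone well above the rest. This gene was picked for its role after its values were seen.

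The 7 Ndufaf genes make assembly factors, which build complex I and are not part of it. They lay nearer 0 than the subunits, with a median log2 fold change of −0.06 and a range of −0.27 to 0.01. Ndufaf3 and Ndufaf4, which act together on the matrix arm, had −0.27 (SE 0.16) and −0.19 (SE 0.18). Ndufaf5, the enzyme that hydroxylates Ndufs7, was at 19.3, 25.8, 25.9 and 15.7 CPM in EE, against 22.2, 17, 18.8 and 28.3 CPM in NE, a log2 fold change of 0.01 (SE 0.21). Whether subunits and assembly factors differ was not tested.

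Complex II, succinate dehydrogenase, is wholly nuclear, and all 4 of its genes had lower values in EE, with a median log2 fold change of −0.28. Sdha, the flavoprotein that oxidises succinate, was at 334, 323, 236 and 266 CPM in EE, against 317, 337, 315 and 282 CPM in NE (log2 fold change −0.11, SE 0.14). EE 3 and EE 4 were below all NE libraries and EE 1 and EE 2 within their range. Sdhb, the iron-sulfur subunit, was at 187, 235, 196 and 128 CPM in EE, against 278, 224, 214 and 209 CPM in NE (−0.31, SE 0.18).

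The membrane anchors of complex II gave similar sizes. Sdhc was at 199, 233, 165 and 138 CPM in EE, against 252, 229.9, 215 and 215 CPM in NE, with only EE 2 inside the NE range (log2 fold change −0.31, SE 0.16, edgeR Benjamini-Hochberg adjusted p = 0.534). Sdhd was at 402, 575, 515 and 333 CPM in EE, against 574, 523, 433 and 646 CPM in NE (−0.25, SE 0.19), with EE 1 and EE 4 low and EE 2 and EE 3 within the range of NE.

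All 8 genes of complex III tested from the nucleus had lower values in EE, with a median log2 fold change of −0.24. Uqcrc1, a core protein of its matrix side (chr9:108936633-108949623, plus strand), was at 320.4, 346, 320.3 and 269.8 CPM in EE, against 434, 369, 359 and 359 CPM in NE. The groups did not overlap, by a gap between 346 CPM in EE 2 and 359 CPM in NE, and the log2 fold change was −0.28 (SE 0.13, edgeR adjusted p = 0.52). Uqcrfs1, the Rieske iron-sulfur protein, was at 262, 315, 227 and 168 CPM in EE, against 361, 312, 277 and 322 CPM in NE (−0.39, SE 0.18).

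Uqcrb, the ubiquinone-binding protein, was at 66.3, 89.6, 54 and 44.9 CPM in EE, against 91.1, 81.8, 66.7 and 98.8 CPM in NE (log2 fold change −0.41, SE 0.21), and EE 2 lay inside the NE range. Uqcrh, the hinge protein and the highest nuclear gene of the complex per base of its longest transcript, was at 325, 546, 572 and 349.5 CPM in EE, against 547, 430.1, 398 and 638 CPM in NE. Its difference of −0.17 (SE 0.23) was smaller than the spread within EE.

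Complex IV, cytochrome c oxidase, had the lowest median of the nuclear groups at −0.32, with 12 of 14 genes tested lower in EE. Cox7a2l, a factor that joins complexes III and IV into supercomplexes (chr17:83501918-83517330, minus strand), was at 105, 128, 119.6 and 93.7 CPM in EE, against 131, 132, 132 and 163 CPM in NE. The groups stood apart by a small gap, 128 CPM in EE 2 against 131 CPM in NE 1, and the log2 fold change was −0.32 (SE 0.13, edgeR adjusted p = 0.52).

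Cox8a, the smallest subunit, was at 197, 290, 233 and 204 CPM in EE, against 332, 272, 277 and 303 CPM in NE (log2 fold change −0.36, SE 0.15, edgeR adjusted p = 0.52). Cox6a1 was at 337, 465, 368 and 276 CPM in EE, against 525, 494, 414 and 443 CPM in NE (−0.38, SE 0.17, edgeR adjusted p = 0.52). In both genes EE 2 alone lay within the range of NE.

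Cox4i1, the main regulatory subunit and the highest nuclear gene of the complex per base of its longest transcript, was at 769, 1041, 890.2 and 539 CPM in EE, against 1078, 864, 841 and 1111 CPM in NE (log2 fold change −0.27, SE 0.20). EE 2 and EE 3 lay within the range of NE. Cox7b was at 204, 328, 329.9 and 215 CPM in EE, against 378, 309.7, 293 and 435 CPM in NE (−0.39, SE 0.20). Here too EE 1 and EE 4 were the low pair.

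The 2 genes of complex IV with positive values both had few counts. Cox7c, a subunit of most tissues, stood at 6.36, 7.83, 6.79 and 7.91 CPM in EE, against 5.67, 6.01, 6.37 and 5.62 CPM in NE (log2 fold change 0.28, SE 0.19). Of its 50-base windows 72.1% occur in no other annotated gene, and the part of shared windows in its low count was not tested. Cox6b2, the testis isoform, stood at 1.91, 0.764, 2.11 and 1.58 CPM in EE, against 0.788, 1.29, 1.31 and 1.82 CPM in NE (0.30, SE 0.39).

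Several subunits of complex IV exist as tissue-restricted isoforms, and their balance did not separate the groups. Cox7a1, the muscle isoform, made 8.97%, 9.22%, 8.14% and 9.61% of the counts of Cox7a1 and Cox7a2 together in EE, against 10.9%, 9.38%, 8.03% and 9.2% in NE, although both genes were lower in EE (log2 fold changes −0.47, SE 0.24, and −0.38, SE 0.22). In EE 4, where smooth muscle markers were lowest, Cox7a1 and Cox7a2 were both at their lowest of the 8 libraries, 17.6 and 165 CPM. The Cox7a1 share there was within the range of the other libraries. The part of muscle in these values was not tested. Cox4i2, the isoform of lung and low oxygen, had 2 to 4 counts in each EE library and 5 to 11 in each NE library. Scaled to depth these were 0.302 to 0.636 CPM in EE and 0.468 to 1.73 CPM in NE, which overlapped, and a mean of 0.0722% of both Cox4i genes in EE and 0.113% in NE.

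Cox6b2 made 0.419 ± 0.181% of both Cox6b genes in EE and 0.265 ± 0.0776% in NE (SD, n = 4 each), and Ndufa4l2, a paralogue induced in hypoxia, made 0.706 ± 0.635% and 0.413 ± 0.234% of its pair with Ndufa4 in EE and NE. The high Ndufa4l2 mean in EE came from EE 1 at 1.65%, the other 3 libraries being between 0.267% and 0.506%. Ndufa4, first assigned to complex I and now known in complex IV, was at 164, 286, 335 and 187 CPM in EE, against 253, 225, 197 and 368 CPM in NE (log2 fold change −0.10, SE 0.26).

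In complex V, 14 of 15 genes counted by name had lower values in EE, with a median log2 fold change of −0.20. These lower genes include Atp5sl (−0.20, SE 0.14), which is not a subunit. Atp5b, the catalytic beta subunit, was at 1902, 2061, 1801 and 1536 CPM in EE, against 2197, 1944, 1894 and 1921 CPM in NE (−0.12, SE 0.15), with EE 4 alone far below the others. Atp5j2, subunit f of the membrane part, was at 135, 210.5, 204 and 142 CPM in EE, against 227, 206, 184 and 269 CPM in NE (−0.35, SE 0.18). Atp5f1, subunit b of the stalk, had −0.28 (SE 0.18).

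Atp5g1 and Atp5g3 encode the same mature c subunit of the rotor ring. Atp5g1 was at 6.99, 8.79, 7.99 and 8.7 CPM in EE, against 12, 10.6, 8.34 and 10.4 CPM in NE (log2 fold change −0.34, SE 0.19), and Atp5g3 at 398, 479.8, 384 and 278 CPM in EE, against 445, 421, 369 and 487 CPM in NE (−0.16, SE 0.17). Atp5g1 made 2.15 ± 0.606% of their joint counts in EE and 2.34 ± 0.236% in NE (SD, n = 4 each). The single positive value of the group, 0.03 (SE 0.15), belonged to Atp5s, which like Atp5sl carries the name but is not a subunit.

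Per base of transcript, mt-Co1, mt-Nd1 and mt-Cytb had the highest means of the set over the 8 libraries, under each of 3 ways to set the length, and the other 4 mitochondrial genes lay below several nuclear genes. With counts divided by the length of the longest annotated transcript and scaled to 1000000 over the table, mt-Co1 had a level of 5276 ± 1875 in EE and 5694 ± 1004 in NE (SD, n = 4 each). mt-Nd1 had 3538 ± 1113 in EE and 3260 ± 428 in NE, and mt-Cytb 3044 ± 856 in EE and 2710 ± 409 in NE. mt-Nd2, mt-Nd4, mt-Nd5 and mt-Nd6 had means of 792 to 1003 in EE and 532 to 943 in NE. Counts were divided by the whole length, though only 48.9% of mt-Co1 windows and 37.8% of mt-Nd4 windows occur in no other annotated gene. The part of shared windows in this order was not tested. The highest nuclear levels under this length were 2475 ± 416 in EE and 2861 ± 320.4 in NE for Cox4i1, and 2254 ± 33.3 in EE and 2350 ± 277 in NE for Atp5b. Within EE neighbours in the order mt-Co1, mt-Nd1, mt-Cytb, Cox4i1 and Atp5b differed by less than the larger SD of the pair. In NE Cox4i1 lay above mt-Cytb, by less than the larger SD, while mt-Co1 over mt-Nd1, mt-Nd1 over mt-Cytb and Cox4i1 over Atp5b differed by more than it.

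mt-Nd6, the subunit of complex I encoded on the other strand from all the rest, was at 208, 193, 103 and 184 CPM in EE, against 105, 142, 125 and 115 CPM in NE. EE 1, EE 2 and EE 4 lay above all NE libraries and EE 3 below them, and the log2 fold change was 0.50 (SE 0.20, edgeR adjusted p = 0.52). mt-Nd5, its neighbour, was at 719.8, 794, 492 and 879 CPM in EE, against 496, 605, 576 and 564 CPM in NE, with the same split (0.36, SE 0.18, edgeR adjusted p = 0.524).

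mt-Nd4 was at 495, 501, 277 and 639 CPM in EE, against 362, 457, 439 and 375 CPM in NE (log2 fold change 0.23, SE 0.22). mt-Nd1 was at 1388, 1502, 983 and 1736 CPM in EE, against 1308, 1517, 1400 and 1282 CPM in NE (0.03, SE 0.18), and mt-Nd2 at 376, 475, 316 and 554 CPM in EE, against 404, 486, 414 and 429 CPM in NE (−0.01, SE 0.18). In all 3 genes EE 3 was the lowest library and EE 4 the highest.

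mt-Cytb, the central subunit of complex III, was at 1478, 1609, 1007 and 1699 CPM in EE, against 1259, 1581, 1380 and 1252 CPM in NE (log2 fold change 0.08, SE 0.18). mt-Co1, the catalytic subunit of complex IV, was at 3339, 3924, 2035 and 4229 CPM in EE, against 3649, 4023, 4313 and 3487 CPM in NE (−0.19, SE 0.22). EE 1 and EE 3 lay below the NE range and EE 2 and EE 4 within it.

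Ratios between mitochondrial genes within a library do not depend on how the libraries are scaled, and several separated the groups where the levels did not. They were examined after the levels had been seen, so they are given with no test. mt-Nd5 over mt-Cytb was 0.487, 0.493, 0.489 and 0.517 in EE, against 0.394, 0.382, 0.417 and 0.45 in NE. mt-Nd6 over mt-Cytb was 0.141, 0.12, 0.103 and 0.108 in EE, against 0.0834, 0.0899, 0.0906 and 0.0922 in NE. EE 3, the library with the lowest level of all 7 genes, lay with the other EE libraries in both ratios.

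The ratio of mt-Co1 to mt-Cytb was 2.26, 2.44, 2.02 and 2.49 in EE, against 2.9, 2.54, 3.12 and 2.78 in NE. Over mt-Nd6, mt-Co1 was at 16.1, 20.3, 19.7 and 23 in EE, against 34.8, 28.3, 34.5 and 30.2 in NE, a mean log2 difference of −0.70. Over mt-Nd5 it was at 4.64, 4.94, 4.14 and 4.81 in EE, against 7.36, 6.65, 7.49 and 6.18 in NE, a mean log2 difference of −0.58. By contrast mt-Nd1 over mt-Cytb was 0.939, 0.933, 0.977 and 1.02 in EE, against 1.04, 0.959, 1.01 and 1.02 in NE, with overlapping groups.

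**Figure D5:**
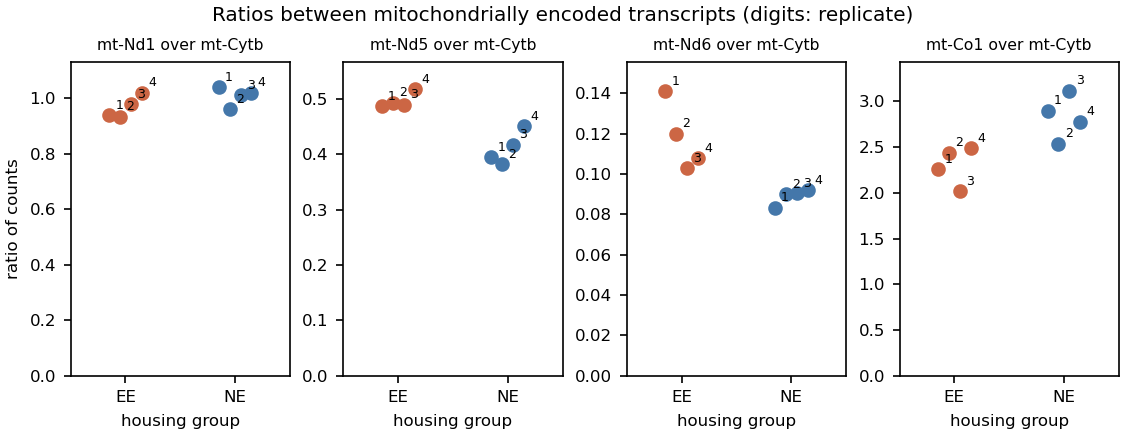
Ratios of counts to mt-Cytb within each library (y axes, from 0) for mt-Nd1, mt-Nd5, mt-Nd6 and mt-Co1, in EE and NE; points are libraries numbered by replicate. mt-Nd5 (0.487 to 0.517 in EE, 0.382 to 0.45 in NE) and mt-Nd6 (0.103 to 0.141 in EE, 0.0834 to 0.0922 in NE) are higher in every EE library, mt-Co1 is lower in every EE library, and mt-Nd1 overlaps.

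Of the 21 pairs of mitochondrial genes, 11 had ratios whose groups did not overlap (52.4%). Among 2970703 pairs of genes with a mean of at least 100 CPM the share was 4.61%, and among 3486 pairs of nuclear oxidative phosphorylation genes 3.82%. Pairs that share a gene are not independent, and 5 of the 11 hold mt-Co1. The remaining 6 set mt-Nd5 or mt-Nd6 against mt-Nd1, mt-Nd2 or mt-Cytb, which are the 5 genes with at least 90% of their 50-base windows in no other annotated gene. Of mt-Co1 48.9% of windows and of mt-Nd4 37.8% occur in no other gene, the others being shared mostly with pseudogenes on chromosome 1, and how the authors counted reads with several matches is not given in the sources used here. The part of shared windows in the mt-Co1 ratios was not tested.

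mt-Nd5 and mt-Nd6 overlap at their ends on opposite strands, in a stretch of 14 bases (GENCODE M21, GRCm38, mitochondrial DNA 13552 to 13565). It is printed because reads across it could count for either gene unless strand was used, which is not stated; capitals mark the whole overlap.
mt-Nd5 sense strand: TTAATCTCGAGTAA
mt-Nd6 sense strand: TTACTCGAGATTAA
The rest of each gene is also antisense to transcripts of the other strand, so without strand-aware counting the mt-Nd6 values could include RNA of the opposite strand. The ratio of mt-Nd5 to mt-Nd6 was 3.46, 4.1, 4.76 and 4.79 in EE, against 4.73, 4.25, 4.6 and 4.88 in NE, and the groups overlapped.

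Lists of related genes outside these complexes had medians closer to 0 than the −0.24 of the nuclear genes. Single genes in some lists ranged more widely, from −0.93 to 0.66 among the regulators of biogenesis. For the counts that follow, 9.49% of all tested genes had an unadjusted p under 0.05 by edgeR. Of 28 genes for transcription, maintenance and RNA handling of mitochondrial DNA, 12 were lower and 16 higher in EE (median log2 fold change 0.03), and none had an unadjusted p under 0.05. No gene of this or any list that follows was called by edgeR, DESeq2 or limma-voom at an adjusted p under 0.05. In this list Fastkd1, an RNA-binding protein of mitochondria, had −0.29 (SE 0.13), and the topoisomerase Top1mt was at 10.6, 10.7, 12.8 and 12.8 CPM in EE, against 8.51, 8.44, 9.65 and 10.4 CPM in NE, without overlap of the groups. Of 74 mitochondrial ribosomal proteins 48 were lower (median −0.04), with 0 at an unadjusted p under 0.05. Of 39 assembly factors outside the set 26 were lower (median −0.07), and 1 reached that level, the complex I factor Tmem126b at −0.46 (SE 0.20).

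Of 17 genes of the tricarboxylic acid cycle 14 were lower (median −0.12), and Idh3b, a subunit of isocitrate dehydrogenase, was at 195, 235, 178 and 144 CPM in EE, against 282, 237, 236 and 227 CPM in NE (log2 fold change −0.39, SE 0.16). Of 21 genes for electron carriers and ADP/ATP exchange 16 were lower (median −0.12), with the ubiquinone synthesis factor Coq9 at 83.3, 96.7, 74.8 and 69.3 CPM in EE, against 109.8, 107, 95.8 and 108 CPM in NE (−0.38, SE 0.13). EE 2 alone reached the NE range. Of 23 glycolytic genes 12 were lower and 11 higher (median −0.01). In each of these 3 lists 1 gene had an unadjusted p under 0.05, Idh3b, Coq9 and Gapdh, a glycolytic enzyme higher in EE at 0.65 (SE 0.25). Gapdh had few counts, at 11.4, 10.1, 12.4 and 20.3 CPM in EE, against 6.93, 7.58, 9.74 and 10.4 CPM in NE. The windows it shares with other genes were not examined.

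Of 13 regulators of mitochondrial biogenesis 5 were lower and 8 higher (median 0.08), and 3 had an unadjusted p under 0.05. Esrra, the nuclear receptor that activates many respiratory genes, was at 102, 133, 108 and 97.8 CPM in EE, against 145, 133, 132 and 148 CPM in NE (log2 fold change −0.34, SE 0.12, edgeR adjusted p = 0.52). Ppara, the receptor for fatty acid oxidation genes, had −0.93 (SE 0.30), and Pprc1, a coactivator of the PGC-1 family, had 0.66 (SE 0.26). The Pprc1 value in EE 4, 83.1 CPM, was above 33.8 to 52 CPM in the other EE libraries and 28.8 to 36.2 CPM in NE.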

How the data were processed

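Distal colon RNA of 8 mouse samples was sequenced as strand-preserving libraries depleted of ribosomal RNA, in single reads of 50 bases, per the labels' protocols. The submitters' processing notes name Novoalign 2.08.01, DESeq 1.14.0 and build mm10. Not given in the sources used here are the counting program, its annotation and its use of strand. The authors deposited raw counts per gene, in whole numbers, with at least 12 counts over the 8 libraries for every gene. Per the file headers, the authors also deposited log2 fold changes with an FDR, a kind of adjusted p-value, without naming the numerator. In the authors' deposited table the sign was opposite to EE minus NE for 97.8% of tested genes, 81 members had a positive log2 fold change, and the lowest FDR of a member was 0.319. Groups and replicate numbers come from the sample titles, which match the columns.

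The count test was edgeR 4.0.16 under R 4.3.3, with filterByExpr, TMM scaling, a robust quasi-likelihood fit, p-values adjusted by Benjamini-Hochberg over all 14311 genes, and calls under 0.05. The model held the housing group alone, and the labels give no batch. CPM are counts per 1000000 of the TMM-scaled library size, with a prior count of 2 on the log2 scale. The standard error is the fold change divided by the square root of the F statistic. The biological coefficient of variation was 0.219. Between libraries of a group the lowest chi-square over its degrees of freedom was 7.46, so none was a repeat sequencing run of another. Libraries made separately from the same animal cannot be recognised by this value. Members and lists were chosen with earlier results of these data known. Members are genes and not replicates, so sums, ratios and medians over them were given no test.

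Of the table's identifiers 15948 were found in GENCODE M21, whose build GRCm38 is that of mm10, and all members were. Windows of 50 bases of every transcript were compared between its genes. Of the 86 nuclear members 42 had no window in another gene and 22 had under 90% of windows of their own. Lengths for length classes are those of APPRIS principal transcripts. Promoter windows are from RefSeq.

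Named genes were the mitochondrial members, isoform pairs, complex II, the 3 smallest p and the highest level per length in each class, members called by any tool, the 5 highest and 5 lowest fold changes, and up to 3 genes in each other list. On counts simulated for EE against NE over 14311 genes, edgeR recovered 53 of 100 genes changed 2-fold and 86 of 100 changed 4-fold, with 6 false calls. Alternatives were DESeq2 1.42.0, limma-voom (limma 3.58.1), RLE and upper-quartile scaling, mitochondrial genes left out of library sizes, no filter, a filter at 1 CPM in 4 libraries, a threshold of 0.1, a replicate block, each library left out, other lengths and sums, and, chosen after seeing the data, long transcripts alone, members with at least 90% own windows and principal transcript lengths.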

Additional observations from a re-analysis of the deposited data

Results flagged for a closer look

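Of 94 groups of 4 values checked among named members and library sums, 3 held a library far from the other 3, and chance gives about 1 in 20. Atp5b in NE 1, at 2197 CPM, stood above the other NE libraries at 1894 to 1944 CPM. Uqcrc1 in NE 1 stood at 434 CPM, against 359 to 369 CPM in the other NE libraries, all above the highest EE library at 346 CPM. Cox7a2l in NE 4 stood at 163 CPM, against 131 to 132 CPM in the other NE libraries. All 3 are high values in NE, in genes with lower values in EE.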

How the results depend on the processing

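No member was called under any setting run, and DESeq2 called 12 of all genes, none of them members. The median log2 fold change of nuclear members stayed negative, at −0.33 to −0.14 when each library was left out and at −0.19 for transcripts over 1500 bases. That of mitochondrial members ran from 0 to 0.23 with each library left out. The count of members at an unadjusted p under 0.05 ran from 1 without EE 1 to 31 without EE 2, with 2 without EE 4, 3 without NE 1, 3 without NE 4 and 5 without NE 2. Over all genes its lowest value was 665 (NE 1 left out) and its highest 2746 (EE 2 left out), and adjusted calls numbered 0 to 1. Counts under these settings are not shares, so they do not tell where members lay above or below all genes. Same-numbered libraries had deviations correlated at 0.25, 0.01, −0.18 and −0.04. Only EE 1 correlated most with the NE library of its own number. These values cannot settle if the libraries are paired, because a shared cage or batch may leave little trace in them. With a replicate block 3 members had an unadjusted p under 0.05, against 1405 of all genes, and no member was called. The log2 ratio of mitochondrial to nuclear counts differed by −0.04 to 0.41 with each library left out, by 0.33 without mt-Co1 in the sum, and by 0.58 with medians over members in place of sums. Of 672 values of 42 named members under other settings, 21 in 8 members had the other sign, all with a library left out: Atp5s ran from −0.01 to 0.07, Ndufa4 from −0.29 to 0.11, mt-Nd2 from −0.15 to 0.12, Ndufaf5 from −0.09 to 0.16, Ndufs6 from −0.02 to 0.21, mt-Nd1 from −0.09 to 0.17, mt-Cytb from 0 to 0.23 and Ndufaf1 from −0.21 to 0.02. Levels per length depended on the length used: Atp5b was at 1302 per 1000000 with the union of exons and 2015 with the principal transcript, Sdhd at 1162, Cox4i1 at 1646 and Uqcrh at 1103 with the union of exons, and Uqcrh at 1747 with the principal transcript. The causes of these changes were not tested. Few counts limit the values of Cox4i2, Ndufa4l2 and Cox6b2 and, outside the set, of Gapdh. Both few counts and windows shared with other genes limit those of Ndufs5, Cox7c and Atp5g1.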

Other observations

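The mitochondrial genes with counts leave a gap in the mitochondrial genome. mt-Nd1, mt-Nd2 and mt-Co1 lie before it, and mt-Nd4, mt-Nd5, mt-Nd6 and mt-Cytb after it. The genes between them, mt-Co2, mt-Atp8, mt-Atp6, mt-Co3, mt-Nd3 and mt-Nd4l, lie within mitochondrial DNA 7013 to 10173 (GENCODE M21, GRCm38) and were not analysed here. Of the 50-base windows of mt-Co2 0% occur in no other annotated gene, of mt-Co3 0.1%, of mt-Atp6 0.5%, of mt-Nd4l 1.2% and of mt-Nd3 2%, the others being found in unprocessed pseudogenes on chromosome 1. mt-Atp8 is different, with 100% of its windows found in no other annotated gene. Among the genes with counts the share was 100% for mt-Nd1, mt-Nd6 and mt-Cytb, 92.4% for mt-Nd5, 91.8% for mt-Nd2, 48.9% for mt-Co1 and 37.8% for mt-Nd4. Sums over mitochondrial members in this tissue therefore leave out these subunits of complexes I, IV and V.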
